A study of Rattus norvegicus with 4 samples.

Results

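The genes described here are 40 genes of the endoplasmic reticulum (ER) that fold, modify, move and dispose of secreted proteins, together with the sensors and transcription factors of the unfolded protein response (UPR). They were chosen by name and not by a rule on measured values, but with earlier results of these data known. The study itself lists *Sec11c*, *Sec61b*, *Sec61g* and *Ssr4* as dominant in hormone-producing cells. All 40 were found among the 30058 genes of the single-cell count table, 39 under their own symbol and *Derl2* under LOC100910823, its NCBI gene identifier. They comprise 9 chaperones and co-chaperones of the ER lumen, 6 lectin chaperones and protein disulphide isomerases, 7 UPR sensors and transcription factors, 6 genes of ER-associated degradation, 7 subunits of the Sec61 channel and of the translocon-associated complex (SSR), and 5 subunits of signal peptidase.

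The data were droplet single-cell RNA-seq counts of dispersed anterior pituitary cells from Sprague Dawley rats, given as unique molecular identifiers (UMIs, 1 for each captured mRNA molecule). The female group was 1 pool of 4 pituitaries from 44-day-old animals in diestrus, and the male group was 1 pool of 4 pituitaries from 59-day-old animals. Neither group received a treatment. Each pool was loaded on 2 lanes, numbered 1 and 2 (female) and 3 and 4 (male), so lanes are technical replicates, no value has a spread between animals, and sex cannot be told apart from pool and age. Cells were typed by marker genes as hormone-producing cells (HPC), namely somatotrophs (S, growth hormone), lactotrophs (L, prolactin), corticotrophs (C, ACTH), thyrotrophs (T, TSH) and gonadotrophs (G, LH and FSH), as folliculostellate cells (FSC, the non-endocrine support cells), or as leukocytes (Le), endothelial cells (EC) and erythrocytes (E).

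Of 7861 cells, 6842 were kept: 792 C, 236 G, 87 T, 1886 S, 486 L, 2312 FSC, 549 Le, 133 EC and 361 E. The cell numbers of the 4 lanes told which sex each held, and Y-linked genes were at 0.528 and 0.443 counts per 1e6 UMIs in the female and at 87.5 and 87.9 in the male lanes. The file held 86742346 UMIs, with lane medians of 7971 to 9413 per cell, and 30 barcodes occurred in more than 1 lane. The female T stood apart: 17 and 19 cells per lane with median mitochondrial shares of 10.8% and 8.22%, against 5.76% and 6.49% in the male T. Results that rest on T are given with and without that type where it matters.

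Proteins bound for secretion enter the ER through the Sec61 channel, lose their signal peptide to signal peptidase, and fold with the help of chaperones such as BiP (*Hspa5*) and of disulphide isomerases. Proteins that fail to fold are drawn back into the cytosol and degraded. When folding capacity falls short, the sensors IRE1 (*Ern1*), PERK (*Eif2ak3*) and ATF6 (*Atf6*) raise the transcription of chaperones and degradation genes through XBP1, ATF4 and cleaved ATF6, and hormone-secreting cells carry a large and changing load of such proteins.

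The DNA elements through which ATF6 and XBP1 act are known, and the promoters of the members were searched for exact matches to them. RefSeq promoter windows of the GRCr8 assembly (300 bases, from 250 before to 50 after the start) were found for 33 of the 40 members. The ER stress element (ERSE, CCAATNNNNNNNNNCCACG) occurred on either strand in 22 of 33469 promoters (0.0657%) and in those of 8 members. ERSE-II (ATTGGNCCACG) occurred in 17 promoters (0.0508%) and in those of *Hyou1*, *Dnajb11* and *Herpud1*. The core of the UPR element (TGACGTGG) occurred in 199 promoters (0.595%), among members in *Hyou1* alone, where it overlapped an ERSE-II. Most of the 8 members with an ERSE are chaperones or their partners, and their elements are written in the direction of the motif, with the fixed bases in capitals.
*Hspa5*, chr3:38452973-38452991, plus strand of the motif: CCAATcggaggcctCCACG
*Hsp90b1*, chr7:23012451-23012469, minus strand: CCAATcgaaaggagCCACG
*Hsp90b1*, chr7:23012347-23012365, plus strand: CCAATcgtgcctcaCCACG
*Creld2*, chr7:121789239-121789257, minus strand: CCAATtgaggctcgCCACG
*Dnajc3*, chr15:102432534-102432552, plus strand: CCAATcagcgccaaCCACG
*Calr*, chr19:40213135-40213153, minus strand: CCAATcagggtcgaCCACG
*Canx*, chr10:35158069-35158087, minus strand: CCAATcatcacgctCCACG
*Xbp1*, chr14:84604558-84604576, plus strand: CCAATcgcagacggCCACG
*Derl3*, chr20:12766601-12766619, plus strand: CCAATaaggaagtcCCACG
A match is a description of the letters and says nothing of binding in these cells. Only exact matches within the window were sought, so a window without one does not show that the gene lacks an element. The members without a window were *Manf*, *Pdia3*, *Pdia6*, *Ern1*, *Atf6*, *Derl1* and *Sec61a1*.

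The 40 genes took a larger share of UMIs in every HPC type than in FSC, Le, EC or E. Over all lanes the share was 1.79% in T, 1.32% in L, 1.22% in G, 1.03% in C and 0.960% in S, against 0.687% in FSC, 0.583% in EC, 0.504% in Le and 0.0418% in E. Lane by lane, the lowest HPC share was 0.943% (S, lane 4) and the highest share outside HPC was 0.714% (FSC, lane 2), so the lanes of HPC and of the other types did not overlap. In E, *Sec61g* alone held 1037 of the 1316 member UMIs. Hormone mRNA filled 30.2% of UMIs in S, 27.5% in L, 20.6% in C, 16.5% in T and 14.6% in G, and 0.587% in FSC. With the 7 hormone genes left out of the totals, the share was 2.14% in T, 1.81% in L, 1.42% in G, 1.38% in S and 1.30% in C, and 0.691% in FSC. The order of neighbours in this list was not stable: in T the female lanes were at 1.23% and 1.27% and the male lanes at 2.39% and 2.68%, and in L the female lanes were at 2.20% and 2.19% and the male lanes at 1.18% and 1.15%.

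**Figure D1:**
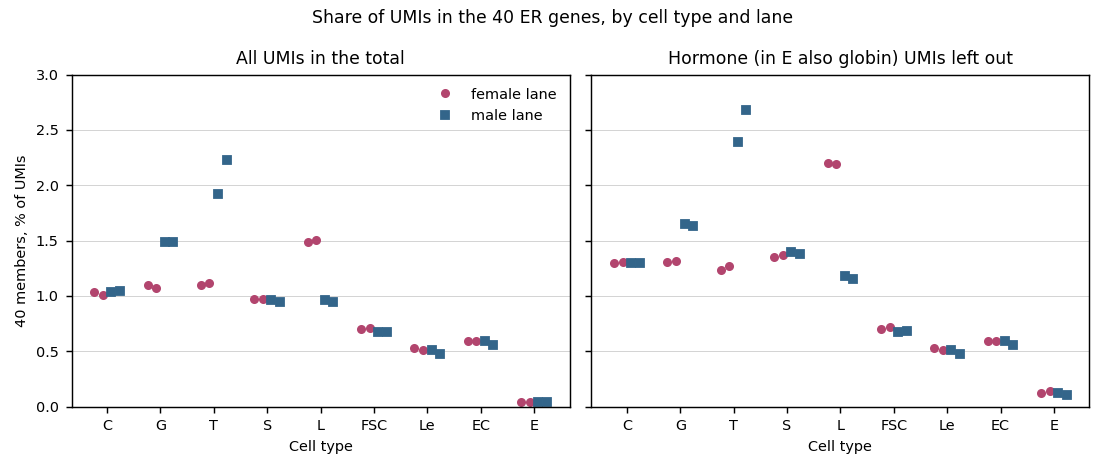
Share of UMIs in the 40 ER genes (%, y axis) in each cell type (x axis), 1 point per lane, with all UMIs in the total on the left and with hormone genes (in E also globin) left out on the right. Every HPC lane lies above every FSC, Le, EC and E lane, and the 2 pools of T, L and G lie apart while those of C and S lie together.

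By role, the Sec61 and SSR subunits held the largest part of the share in L (0.578% of UMIs), S (0.388%) and G (0.351%). In T the lumenal chaperones led with 0.468%, ahead of 0.412% for Sec61 and SSR, and in C signal peptidase led with 0.295%. The UPR sensors and factors were the only role with a larger share in FSC (0.102%) than in any HPC type (0.0466% to 0.0682%). In FSC the lectins and isomerases led with 0.155%.

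Single members were compared between HPC and FSC on UMI sums per type and pool, giving 10 HPC and 2 FSC sums. Values are counts per 1e6 UMIs (CPM) after TMM scaling, differences are log2 fold changes ± SE, and p-values are those of edgeR's quasi-likelihood test, 2-sided and adjusted by Benjamini-Hochberg over all genes tested. All 40 members passed the filter on low counts, though *Derl3* and *Eif2ak3* had 0 UMIs in the female T sum. Of the 40, 26 were higher in HPC and 3 lower at an adjusted p below 0.05, where 20.2% and 28.5% of the 13608 genes tested were. Their median log2 fold change was 1.01, against -0.09 over all genes. Adjusted p-values below 0.001 were reached by 16 higher members and 1 lower member. Each type had its own term in the fit, and its sums come from 1 pool per sex. These p-values therefore measure the difference against the disagreement of the pools within types, after the sex term. They do not measure it against the spread between HPC types or between animals.

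The genes of protein entry into the ER were mostly higher in HPC. The channel subunits *Sec61b* and *Sec61g* and the SSR subunit *Ssr1* were called higher, as were *Ssr2*, *Ssr3* and *Ssr4*, and of the 7 genes only *Sec61a1*, the pore subunit itself, was not. *Sec61b* was at 671 to 2375 in the HPC sums, with a median of 944, and at 321 and 335 in FSC (log2 fold change 1.72 ± 0.26, adjusted p = 4.03e-05). *Sec61g* was at 645 to 1966 in the HPC sums, with a median of 822, and at 280.5 and 291 in FSC (log2 fold change 1.70 ± 0.25, adjusted p = 2.98e-05). *Ssr1* was at 119 to 348 in the HPC sums, with a median of 165, and at 62.6 and 60.2 in FSC (log2 fold change 1.54 ± 0.25, adjusted p = 8.59e-05). In none of these genes did the HPC and FSC sums overlap. *Sec61a1* lay at 40.6 to 94.3 in the HPC sums, with a median of 47.9, and at 52.3 and 49.5 in FSC, so the groups overlapped (log2 fold change 0.054 ± 0.19, adjusted p = 0.857). Signal peptidase followed with 4 of 5 subunits higher. *Spcs1*, an accessory subunit, was at 577 to 999.98 in the HPC sums, with a median of 834, and at 368 and 347 in FSC (log2 fold change 1.15 ± 0.17, adjusted p = 3.3e-05). The 2 catalytic subunits did not go together: *Sec11c* was at 317 to 2461 in the HPC sums, with a median of 837, and at 117 and 136 in FSC (log2 fold change 2.76 ± 0.52, adjusted p = 0.00035), while *Sec11a* was at 97.6 to 369 in the HPC sums, with a median of 197, and at 249.6 and 193 in FSC (log2 fold change -0.13 ± 0.24, adjusted p = 0.701).

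Of the lumenal chaperones, 6 of 9 were higher in HPC. *Hyou1*, a large relative of the HSP70 chaperones that exchanges the nucleotide of BiP, was at 26.2 to 222 in the HPC sums, with a median of 82.3, and at 23.3 and 26.7 in FSC (log2 fold change 1.69 ± 0.23, adjusted p = 1.85e-05). All but 1 of its 10 HPC sums lay above both FSC sums. *Dnajb9*, a J protein that brings clients to BiP, was at 227 to 637 in the HPC sums, with a median of 309, and at 97 and 109 in FSC (log2 fold change 1.79 ± 0.28, adjusted p = 7.2e-05), with no overlap. *Sdf2l1*, a partner of BiP, was at 40.3 to 765 in the HPC sums, with a median of 133, and at 16.3 and 19.8 in FSC (log2 fold change 3.19 ± 0.52, adjusted p = 9.03e-05). BiP itself was not called. *Hspa5* was at 310.5 to 1159 in the HPC sums, with a median of 412, and at 669 and 455 in FSC, so that the FSC sums lay within the HPC range (log2 fold change -0.24 ± 0.23, adjusted p = 0.424). Of the lectins and isomerases 3 of 6 were higher, and of the degradation genes 4 of 6.

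The UPR sensors and factors split. *Ern1*, the IRE1 sensor, was low throughout, at 9.64 to 20.9 in the HPC sums, with a median of 15.4, and at 3.94 and 5.92 in FSC (log2 fold change 1.52 ± 0.25, adjusted p = 8.96e-05). *Eif2ak3*, the PERK kinase, was sparser still, at 0 to 12.4 in the HPC sums, with a median of 9.07, and at 3.94 and 3.81 in FSC (log2 fold change 0.99 ± 0.39, adjusted p = 0.0479). Both were called higher in HPC, though the female T sum held no *Eif2ak3* UMI. *Atf6* was at 8.87 to 31.7 in the HPC sums, with a median of 23.6, and at 26.2 and 28.2 in FSC, with no call (log2 fold change -0.30 ± 0.19, adjusted p = 0.222). *Creb3l2*, an ATF6 relative of secretory cells, was at 13.2 to 89.5 in the HPC sums, with a median of 53.6, and at 27.6 and 35.8 in FSC (log2 fold change 0.66 ± 0.21, adjusted p = 0.016). The 3 members called lower in HPC were all UPR transcription factors. *Xbp1*, the factor activated by IRE1, was at 147 to 284 in the HPC sums, with a median of 197, and at 292 and 336 in FSC (log2 fold change -0.61 ± 0.14, adjusted p = 0.00179). *Atf4*, the factor downstream of PERK, was at 118 to 221 in the HPC sums, with a median of 173, and at 253 and 264 in FSC (log2 fold change -0.61 ± 0.15, adjusted p = 0.00352). *Ddit3*, which encodes CHOP, a target of ATF4, was at 88.3 to 168 in the HPC sums, with a median of 124, and at 247 and 211 in FSC (log2 fold change -0.91 ± 0.16, adjusted p = 0.00017). In all 3 genes every HPC sum lay below both FSC sums. The counts give total *Xbp1* mRNA and do not separate its spliced form. Beside this stands a list of 20 genes known to respond to tissue dissociation: 18 of the 19 tested were lower in HPC, and their summed level was 5386 to 12522 in the HPC sums and 38526 and 28457 in FSC. The part of that response in the levels of *Atf4* and *Ddit3* was not tested.

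Other genes of the secretory pathway were taken from 6 lists, where again 20.2% of all genes tested were higher in HPC and 28.5% lower. Of transport genes between ER and Golgi, 22 of 29 tested were higher in HPC by edgeR's test and 0 lower, and at an unadjusted p below 0.05 the counts were the same. Of oligosaccharyl transferase subunits, 9 of 12 were higher and 1 lower. Among targeting and translocation genes these counts were 8 and 1 of 12, among other folding and redox enzymes 16 and 1 of 27, and among other degradation genes 9 and 1 of 20. The 2 genes of smallest adjusted p per list were *Srp14* (log2 fold change 1.57 ± 0.16, adjusted p = 9.63e-07) and *Sec62* (0.82 ± 0.15, 0.000387), *Tusc3* (1.28 ± 0.16, 4.93e-06) and *Tmem258* (1.33 ± 0.25, 0.000406), *Sil1* (2.14 ± 0.24, 2.01e-06) and *Tmx1* (1.47 ± 0.18, 5.4e-06), *Nploc4* (1.31 ± 0.24, 0.000259) and *Selk* (0.91 ± 0.20, 0.00119), and *Mcfd2* (1.60 ± 0.20, 6.07e-06) and *Sec22b* (1.39 ± 0.23, 9.11e-05). *Sil1*, the other exchange factor of BiP, was at 24.0 and 24.5 in FSC and at 62.0 to 191 in HPC. Of further UPR factors and PERK targets, 5 of 17 were higher and 3 lower. *Atf3* and *Ppp1r15a*, both targets of the PERK branch, had the smallest adjusted p of that list and were lower in HPC. *Atf3* was at 631 and 484 in FSC and at 17.7 to 76.4 in HPC (-3.88 ± 0.19, adjusted p = 1.63e-10). *Ppp1r15a* was at 328 and 266 in FSC and at 48.2 to 113 in HPC (-2.00 ± 0.20, adjusted p = 4.95e-07), and *Atf3* also belongs to the dissociation list.

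Against Le and EC, the types that share the tissue but make no pituitary hormone, 29 members were higher in HPC and 3 lower, where 31.6% and 25.0% of genes tested were. The median was 1.15, against 0.16 over all genes. Here 8 of the 9 lumenal chaperones were higher. *Hyou1* was at 22 and 22.4 in Le and at 11.6 and 9.56 in EC (log2 fold change 2.38 ± 0.24, adjusted p = 5.02e-07), and *Dnajb9* at 88.8 and 69.8 in Le and at 72.2 and 71.7 in EC (log2 fold change 2.24 ± 0.23, adjusted p = 6.83e-07). All HPC sums of both genes, given above, were higher than these. *Spcs1* was at 367 and 389 in Le and at 280.5 and 250.2 in EC (log2 fold change 1.33 ± 0.13, adjusted p = 3.67e-07). *Sec11c* was at 81.4 and 83.7 in Le and at 68.7 and 57.4 in EC, below its lowest HPC sum of 317 (log2 fold change 3.56 ± 0.42, adjusted p = 2.74e-06). *Sec61b* (log2 fold change 1.82 ± 0.19, adjusted p = 1.01e-06) and *Sec61g* (log2 fold change 1.72 ± 0.19, adjusted p = 1.08e-06) were also higher. *Atf6* was lower in HPC, at 56.5 and 49.4 in Le and at 34.9 and 38.2 in EC (log2 fold change -0.99 ± 0.18, adjusted p = 0.000271). *Sel1l*, the partner of the degradation ligase HRD1, was at 44 and 45.5 in Le and at 64 and 59 in EC, and at 22.7 to 86.7 in the HPC sums, with a median of 35.8 (log2 fold change -0.49 ± 0.18, adjusted p = 0.0302). *Atf4* was the other lower gene (log2 fold change -0.37 ± 0.13, adjusted p = 0.02).

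FSC differed from Le and EC in few members: 3 were higher and 4 lower, where 29.0% and 15.6% of genes tested were. *Xbp1* was at 292 and 336 in FSC, above 102 and 100.2 in Le and 78 and 110.0 in EC (log2 fold change 1.69 ± 0.16, adjusted p = 7.84e-07). *Hspa5* was at 669 and 455, above 266 and 248 in Le and 144 and 126 in EC (log2 fold change 1.60 ± 0.26, adjusted p = 0.000116). *Ddit3* overlapped, with 216 and 245 in Le and 83.8 and 78.1 in EC (log2 fold change 0.75 ± 0.19, adjusted p = 0.00424). *Sdf2l1* was high in Le alone of the non-HPC types, with 357 and 248 in Le against 25.6 and 22.3 in EC and 16.3 and 19.8 in FSC (log2 fold change -2.21 ± 0.57, adjusted p = 0.00484). *Sel1l* (log2 fold change -1.28 ± 0.25, adjusted p = 0.000566), *Atf6* (log2 fold change -0.69 ± 0.23, adjusted p = 0.0244) and *Eif2ak3* (log2 fold change -1.28 ± 0.49, adjusted p = 0.0443) were lower in FSC. The dissociation genes, 10 of 19 higher and 1 lower in FSC, summed to 19041 and 16776 in Le and to 15480.0 and 14713 in EC, and their part was not tested. With library size in place of TMM scaling, which moved the median of all genes from 0.24 to 0.47, 12 members were higher and 2 lower.

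Among the HPC types, each was set against the mean of the other 4. T held the highest mean level of 17 members, L of 11, S of 8, and C and G of 2 each, as the map of members by type and pool shows. The share of all genes highest in each type was not counted, and T had the fewest UMIs of the HPC types (972829). Calls were few, and the female and male sums of T and of L lay far apart.

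**Figure D2:**
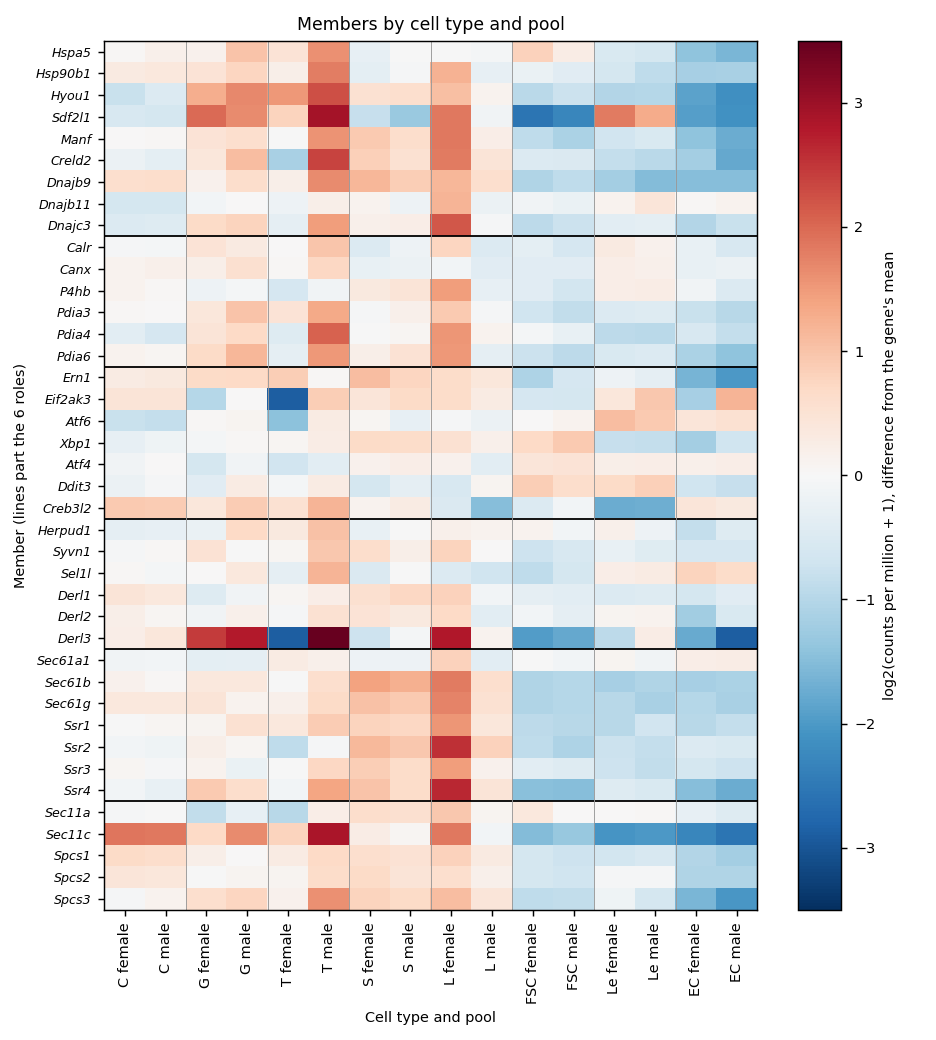
Level of each member (rows, log2 of CPM plus 1, as the difference from the gene's mean) in each type and pool (columns), with lines between the 6 roles. Male T and female L carry most of the highest values, and *Sec11c* is high in both C sums (1247 and 1227 CPM). Every FSC, Le and EC sum lies below the lowest HPC sum for *Sec61b*, *Sec61g*, *Ssr1*, *Ssr3*, *Ssr4*, *Sec11c*, *Spcs1*, *Spcs2* and *Spcs3*. The same holds for *Manf*, *Dnajb9*, *Pdia3*, *Pdia6*, *Ern1* and *Syvn1*. The share of all genes parted in this way was not counted.

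In C, 1 member was higher and 11 were lower, where 11.9% and 8.34% of genes tested were. *Hyou1* was at 26.2 in the female and 32.3 in the male sum, the lowest of all HPC sums (log2 fold change -1.83 ± 0.25, adjusted p = 6.85e-05). *Sdf2l1* was at 68.3 in the female and 64.8 in the male sum (log2 fold change -1.65 ± 0.47, adjusted p = 0.0202), *Xbp1* at 147 in the female and 160.1 in the male sum (log2 fold change -0.52 ± 0.16, adjusted p = 0.0268), and *Atf6* at 14.8 in the female and 14.1 in the male sum (log2 fold change -0.77 ± 0.23, adjusted p = 0.0273). The call for *Atf6*, a sparse gene, turned in sign when cells were thinned to 3000 UMIs (0.34). *Creb3l2* was the higher member, at 74.4 in the female and 72.7 in the male sum (log2 fold change 0.70 ± 0.20, adjusted p = 0.021).

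In G, 2 members were higher and 1 lower (8.42% and 4.08% of genes tested). They were *Hyou1* with 112 in the female and 148 in the male sum (log2 fold change 0.85 ± 0.21, adjusted p = 0.0141), *Sdf2l1* with 399.7 in the female and 319 in the male sum (log2 fold change 1.38 ± 0.39, adjusted p = 0.0279), and the lower *Derl1*, a channel protein of degradation, with 87.2 in the female and 110.0 in the male sum (log2 fold change -0.70 ± 0.21, adjusted p = 0.038). Without T in the fit, 5 were higher and 3 lower, and with library size, which moved the median of all genes from -0.0028 to 0.22, 5 and 0.

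In T, 3 members were higher and 0 lower (3.68% and 1.63% of genes tested). At an unadjusted p below 0.05 there were 14 and 2, and by DESeq2 5 and 0. *Hyou1* was at 133 in the female and 222 in the male sum (log2 fold change 1.45 ± 0.23, adjusted p = 0.00118), *Sdf2l1* at 174 in the female and 765 in the male sum (log2 fold change 1.99 ± 0.41, adjusted p = 0.00913) and *Hspa5* at 535 in the female and 1159 in the male sum (log2 fold change 0.99 ± 0.23, adjusted p = 0.0204). Leaving out lane 2 gave 6 higher members, and sums per lane with the lane as a block gave 15 and 2.

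In S, 2 members were higher and 3 lower (10.2% and 5.97% of genes tested). *Xbp1* was at 284 in the female and 282 in the male sum (log2 fold change 0.58 ± 0.14, adjusted p = 0.0124) and *Sec61b* at 1786 in the female and 1590.2 in the male sum (log2 fold change 0.79 ± 0.22, adjusted p = 0.0212). *Derl3*, a degradation channel protein with an ERSE in its promoter, was at 3.51 in the female and 6.03 in the male sum (log2 fold change -2.61 ± 0.67, adjusted p = 0.0152), *Sdf2l1* at 57.4 in the female and 40.3 in the male sum (log2 fold change -2.23 ± 0.48, adjusted p = 0.00498) and *Sec11c* at 409 in the female and 355 in the male sum (log2 fold change -1.45 ± 0.47, adjusted p = 0.0497). With library size as the scale 0 were higher and 10 lower, and the median of all genes moved from 0.078 to -0.24.

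In L, 5 members were higher and 1 lower (10.0% and 5.05% of genes tested). *Ssr2* was at 1318 in the female and 392 in the male sum (log2 fold change 1.70 ± 0.26, adjusted p = 0.000402), *Ssr4* at 4005 in the female and 878 in the male sum (log2 fold change 1.28 ± 0.36, adjusted p = 0.0265) and *Sec61b* at 2375 in the female and 1012 in the male sum (log2 fold change 0.78 ± 0.22, adjusted p = 0.0258). *Sec61g*, at 1966 in the female and 845 in the male sum (log2 fold change 0.71 ± 0.21, adjusted p = 0.0353), was also higher. So was the co-chaperone *Dnajb11*, at 131 in the female and 48.7 in the male sum (log2 fold change 0.79 ± 0.24, adjusted p = 0.035). In these 5 genes the female L sum was the highest of all sums, while the male L sum lay below both S sums. *Creb3l2* was at 26.8 in the female and 13.2 in the male sum, the lowest of the HPC sums (log2 fold change -1.59 ± 0.25, adjusted p = 0.000486). Without lane 4 there were 9 higher members and without T 11, and with library size 2 were higher and 3 lower.

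The female and male pools of L differed in most of the module. Sums per lane were compared, 2 female against 2 male lanes, so that the p-values measure the spread between lanes of 1 pool and not between animals. Levels in these fits are scaled within a type and are not comparable with those above. Lanes compared 2 against 2 can part without a difference, and the share of all genes whose lanes did so was not counted. In L, 33 of 40 members were lower in the male pool and 1 was higher, where 19.3% and 15.1% of the 8631 genes tested were. The median log2 fold change was -1.06, against 0.019 over all genes. The SSR and Sec61 subunits (7 of 7), signal peptidase (5 of 5), and the lectins and isomerases (6 of 6) were lower throughout, as were 8 of 9 lumenal chaperones, 4 of 6 degradation genes and 3 of 7 UPR sensors and factors.

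*Ssr4*, an SSR subunit, was at 3291 and 3355 in the female and 717 and 736 in the male lanes (log2 fold change -2.19 ± 0.059, adjusted p = 4.4e-35). *Sec11c* was at 1023 and 999 in the female and 283 and 238 in the male lanes (log2 fold change -1.95 ± 0.079, adjusted p = 3.88e-27). *Ssr2* was at 1096 and 1091 in the female and 339.6 and 306 in the male lanes (log2 fold change -1.76 ± 0.074, adjusted p = 2.06e-26). Both female lanes lay above both male lanes in these genes. *Pdia6*, a disulphide isomerase, was at 804 and 767 in the female and 206 and 235 in the male lanes (log2 fold change -1.84 ± 0.083, adjusted p = 4.57e-25). *Derl3* had the lowest fold change of the module (log2 fold change -2.83 ± 0.32, adjusted p = 1.87e-10), at 42.3 and 42 in the female and 6.64 and 4.98 in the male lanes. It was sparse, with 155 UMIs over all lanes of L. Its male lanes alone would not have passed the filter on low counts, so its direction cannot be taken as a result of the test. The counts of members called in L include *Derl3* and were not redone without it. *Hspa5* was the 1 lumenal chaperone with no call. It was at 328 and 300.4 in the female and 309 and 299 in the male lanes, where the lanes of the sexes overlapped (log2 fold change -0.049 ± 0.09, adjusted p = 0.713). That holds for TMM scaling over all L cells, since *Hspa5* was called higher in the male pool with library size and in the cells with 10 to 30% of UMIs in *Prl* described next. *Ddit3* was the 1 member higher in the male pool, at 71.5 and 82.1 in the female and 105 and 140.3 in the male lanes (log2 fold change 0.67 ± 0.14, adjusted p = 0.000103). Of the 11 members with an ERSE or ERSE-II, listed above, 9 were lower in the male pool. Of the 22 with a searched window and no match to either element 19 were, and of the 7 with no window 5 were.

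Several values moved with this difference, and their part in it was not tested. *Prl* filled more of the female L: hormone genes held 31.9% of UMIs in the female and 18.4% in the male pool. Median UMIs per cell were 16169 and 20499 in the female and 7581 and 6672 in the male lanes. The 20 dissociation genes summed to 5077 and 5752 in the female and 9211 and 8921 in the male lanes, with 12 of 19 tested higher and 2 lower in the male pool. Markers of S (*Gh1*, with *Ghrhr* not tested) were at 4138 and 3875 in the female and 3235 and 3030 in the male lanes, and none of the 4 markers each of FSC, Le and EC passed the filter. With each cell thinned to 3000 UMIs, 26 of 35 tested members were lower and 1 higher. In cells with 10 to 30% of UMIs in *Prl* (94 female and 133 male), a comparison chosen after the values were seen, 25 of 38 were lower and 2 higher, with a median of -0.90. In this subset the median *Prl* share was still 22.7% in female and 18.0% in male cells. Library size in place of TMM scaling moved the median of all genes to 0.68 and that of the members to -0.40, with 20 members lower and 6 higher (*Spcs2*, *Canx*, *Xbp1*, *Herpud1*, *Hspa5* and *Ddit3*).

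**Figure D3:**
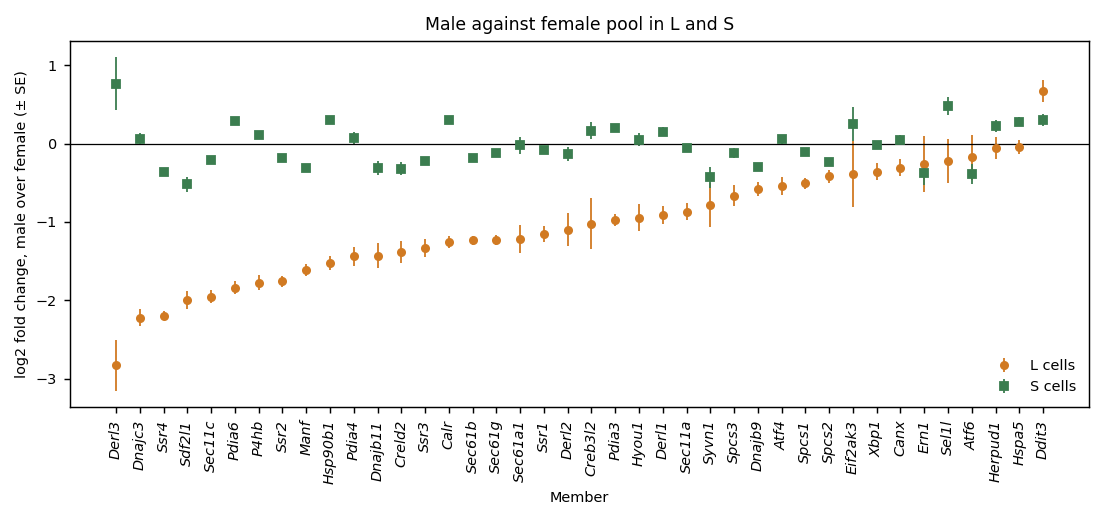
Log2 fold change of the male over the female pool (y axis, ± SE, 2 lanes against 2) for each member (x axis, ordered by the value in L) in L (circles) and S (squares), on TMM scaling. Values in L reach from -2.83 for *Derl3* to 0.67 for *Ddit3*, and values in S lie between -0.52 and 0.76. In L the male lanes of *Derl3* alone would not have passed the filter on low counts.

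The same contrast in S gave log2 fold changes between -0.52 and 0.76. In the male pool 8 members were higher and 15 lower, where 13.5% and 13.1% of genes tested were, with a median of -0.040. Those higher with the smallest adjusted p were mostly folding genes. *Calr*, the lectin chaperone calreticulin, was at 338 and 357 in the female and 442 and 413 in the male lanes (log2 fold change 0.30 ± 0.044, adjusted p = 9.83e-07). *Pdia6* was at 304 and 304 in the female and 375 and 368 in the male lanes (log2 fold change 0.29 ± 0.043, adjusted p = 1.47e-06), *Hsp90b1* at 186 and 189.9 in the female and 237 and 227 in the male lanes (log2 fold change 0.30 ± 0.051, adjusted p = 1.31e-05) and *Hspa5* at 224 and 272 in the female and 313 and 289 in the male lanes (log2 fold change 0.28 ± 0.057, adjusted p = 0.000216). *Pdia3* (log2 fold change 0.20 ± 0.042, adjusted p = 0.000361) and *Sel1l* (log2 fold change 0.48 ± 0.12, adjusted p = 0.00184) rose as well. The lanes of the sexes did not overlap in these 6 genes, which the test had picked. Lower members were led by *Ssr4* with 1018 and 1028 in the female and 784 and 800.2 in the male lanes (log2 fold change -0.37 ± 0.032, adjusted p = 6.56e-12), *Manf*, a secreted partner of BiP (log2 fold change -0.31 ± 0.044, adjusted p = 7.52e-07), *Dnajb9* (log2 fold change -0.30 ± 0.045, adjusted p = 1.19e-06) and *Sec61b* (log2 fold change -0.18 ± 0.029, adjusted p = 7.42e-06). All 7 SSR and Sec61 genes but *Sec61a1* lay lower in both male lanes than in both female lanes. Such parting of the lanes was common among the members in S, in either direction, and its share over all genes was not counted. The dissociation genes, 11 of 19 higher and 3 lower in the male pool, summed to 4699 and 4712 in the female and 5848 and 5730.1 in the male lanes, and their part was not tested. By DESeq2 the counts were 4 and 10, and with library size 10 and 12.

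The difference between these differences was tested directly, with type, sex and lane in 1 fit. In 32 of 40 members the male over female ratio was lower in L than in S and in 0 higher, where 14.1% and 11.3% of the 11806 genes tested were. At an unadjusted p below 0.05 the counts were 34 and 1, and by DESeq2 24 and 0. The smallest adjusted p-values were those of *Ssr4* (log2 fold change -1.81 ± 0.06, adjusted p = 1.12e-61), *Pdia6* (log2 fold change -2.11 ± 0.089, adjusted p = 1.52e-49), *Sec11c* (log2 fold change -1.73 ± 0.086, adjusted p = 1.99e-41) and *Ssr2* (log2 fold change -1.56 ± 0.08, adjusted p = 6.96e-40). With library size the median of all genes moved to 0.59, and 21 members were lower and 6 higher.

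In G the members called were higher in the male pool. 9 of 39 members tested were higher in the male pool and 0 lower, where 7.09% and 8.77% of genes tested were. An unadjusted p below 0.05 was reached by 15 and 4, and DESeq2 called 5 and 0. *Sec11c* was at 601 and 648 in the female and 1202 and 1251 in the male lanes (log2 fold change 0.97 ± 0.10, adjusted p = 2e-06). *Hspa5* was at 499 and 461 in the female and 883 and 859 in the male lanes (log2 fold change 0.86 ± 0.10, adjusted p = 1.37e-05). *Pdia3* was at 672 and 649.7 in the female and 965 and 1047 in the male lanes (log2 fold change 0.61 ± 0.10, adjusted p = 0.000299). Male lanes lay above female lanes in all 3 genes. *Herpud1*, a degradation gene with an ERSE-II, was at 88.3 and 101 in the female and 185 and 174 in the male lanes (log2 fold change 0.92 ± 0.17, adjusted p = 0.000893), and *Pdia6* (log2 fold change 0.49 ± 0.10, adjusted p = 0.00277) and *Ddit3* (log2 fold change 0.70 ± 0.18, adjusted p = 0.0122) were also higher. The dissociation genes summed to 8551 and 7978 in the female and 14039 and 14290 in the male lanes, which held 46 cells each, and 11 of 19 were higher and 1 lower in the male pool. Hormone genes held 17.2% of UMIs in the female and 9.29% in the male G. Median UMIs per cell were 10819.5 and 12976 in the female and 8519.5 and 9727.5 in the male lanes. The part of these values was not tested. Without lane 3, which left 1 male lane, 6 members were higher, and with library size 21 were. Without lane 1 there were 8 higher and 3 lower, and with no filter 6 and 2.

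In T, 16 of 36 members tested were higher in the male pool and 0 lower, where 2.32% and 1.07% of the 3272 genes tested were. No member was lower at an unadjusted p below 0.05 or by DESeq2 either, and 24 and 12 were higher. *Sec11c* was at 858 and 749 in the female and 3127 and 2901 in the male lanes (log2 fold change 1.91 ± 0.17, adjusted p = 8.29e-08). *Sdf2l1* was at 162 and 289 in the female and 874 and 1028 in the male lanes (log2 fold change 2.02 ± 0.23, adjusted p = 4.56e-06). *Pdia6* was at 305 and 399 in the female and 1073 and 1298 in the male lanes (log2 fold change 1.73 ± 0.20, adjusted p = 4.56e-06). *Pdia4* was at 105 and 82.5 in the female and 356 and 661 in the male lanes (log2 fold change 2.44 ± 0.33, adjusted p = 4.93e-05), *Manf* at 448 and 412 in the female and 1149 and 1213 in the male lanes (log2 fold change 1.46 ± 0.18, adjusted p = 1.86e-05) and *Ssr4* at 638 and 948 in the female and 2071 and 2089.8 in the male lanes (log2 fold change 1.37 ± 0.18, adjusted p = 3.16e-05). In these 6 genes every male lane was above both female lanes. *Derl3* had 0 UMIs in both female lanes and stood at 118 and 174 CPM in the male lanes. *Creld2* was at 9.53 and 41.2 in the female and 217 and 406 in the male lanes. Both genes passed the filter through the male lanes alone, so their direction was fixed by that entry. They are among the 36 members tested, and the counts were not redone without them. The female T held only 113669 and 160751 UMIs per lane. The female T were also fewer and shallower, with 17 and 19 cells and medians of 6149 and 7148 UMIs against 13700 and 13034, and their mitochondrial shares, given above, were higher. Their T markers summed to 115306 and 123494 CPM against 227257 and 190014 in the male lanes. The part of these values was not tested. Thinned to 3000 UMIs, 6 of 27 members were higher.

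In FSC, 1 of 39 members was higher in the male pool and 6 lower, where 5.69% and 6.02% of genes tested were. *Hspa5* was at 808 and 772 in the female and 542 and 532 in the male lanes (log2 fold change -0.56 ± 0.045, adjusted p = 1.09e-07). *Sec11a* was at 279 and 308 in the female and 223 and 232 in the male lanes (log2 fold change -0.37 ± 0.06, adjusted p = 0.000442), *Calr* at 559 and 566 in the female and 473 and 484 in the male lanes (log2 fold change -0.23 ± 0.046, adjusted p = 0.00248) and *P4hb*, the classical disulphide isomerase, at 236 and 231 in the female and 195 and 202 in the male lanes (log2 fold change -0.23 ± 0.058, adjusted p = 0.0123). *Xbp1* was higher, at 335 and 352 in the female and 399.9 and 393 in the male lanes (log2 fold change 0.21 ± 0.052, adjusted p = 0.0136). The dissociation genes went the same way as *Hspa5*, with sums of 46673 and 44295 in the female and 34331 and 32823 in the male lanes and 18 of 19 lower in the male pool, and their part was not tested. Without lane 1 there were 0 higher and 9 lower members, without lane 3 there were 1 and 4, without lane 4 there were 0 and 4, and with library size 3 and 5. In C, 0 of 40 members were called in either direction by edgeR or DESeq2, where 0.524% and 1.06% of genes tested were, and at an unadjusted p below 0.05 there were 0 higher and 1 lower.

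The last question was whether cells that carry more hormone mRNA also carry more mRNA of the ER genes. Cells of each lane were parted into 3 equal parts by their share of UMIs in the hormone genes of their type (*Gh1* in S, *Prl* in L, *Pomc* in C, and *Lhb*, *Fshb* and *Cga* in G), and the hormone genes were then left out of all totals. FSC, which should lack *Gh1* and have few of its UMIs, were parted by *Gh1* for comparison. In G the 40 genes held 1.04% of non-hormone UMIs in the hormone-poor part and 1.42% and 1.68% in the middle and hormone-rich parts. The same values were 1.72%, 1.83% and 1.91% in L, 1.34%, 1.36% and 1.43% in S, and 1.25%, 1.30% and 1.34% in C. All these values pool the lanes, and in L the female and male lanes lay far apart. From hormone-poor to hormone-rich L they went from 1.99 to 2.34% in lane 1 and from 2.01 to 2.53% in lane 2. In the male lanes of L they went from 1.04 to 1.31% in lane 3 and from 1.03 to 1.30% in lane 4. In FSC the pooled values were 0.690%, 0.688% and 0.697%. Of cells within 1 percentage point of a cut there were 62 of 236 in G, 66 of 486 in L, 219 of 1886 in S, 136 of 792 in C and 2303 of 2312 in FSC. The FSC parts differed only from a median of 0.21% to one of 0.37% of UMIs in *Gh1*, so their flat values do not show that no relation exists.

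**Figure D4:**
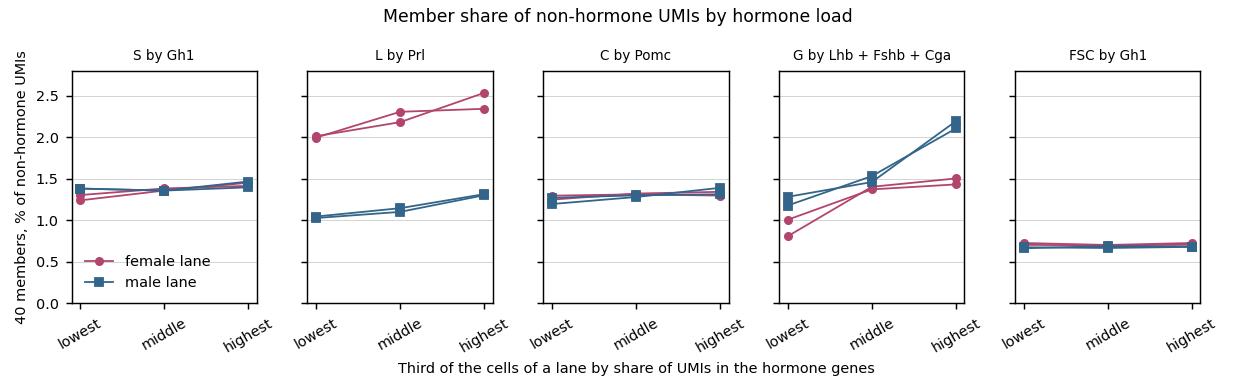
Share of non-hormone UMIs in the 40 genes (%, y axis) in the hormone-poor, middle and hormone-rich cells (x axis) of each type, 1 line per lane. In all 4 lanes of every type, FSC included, the hormone-rich cells lie above the hormone-poor cells. The size of the step differs: it goes from 0.807 to 1.503% in lane 1 and from 1.28 to 2.19% in lane 3 of G. In lane 4 of S it goes from 1.38 to 1.40%, and in lane 1 of C from 1.296 to 1.297%. The lanes of FSC stay close together, with 0.663 to 0.682% in lane 4.

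Over single cells, Spearman's rho between the hormone share and the members' share of non-hormone UMIs was 0.49 to 0.65 in the 4 lanes of G, 0.30 to 0.41 in L, 0.16 to 0.24 in S, -0.00072 to 0.39 in C and -0.0092 to 0.044 in FSC. These are descriptions over 46 to 74 cells of a lane in G, 103 to 131 in L, 436 to 523 in S, 165 to 229 in C and 554 to 602 in FSC, and cells of a lane share its library. With cells thinned to 3000 UMIs, rho was 0.40 to 0.60 in G, 0.26 to 0.38 in L, 0.12 to 0.21 in S and 0.0040 to 0.36 in C. Taken over all UMIs, where hormone mRNA itself lowers the members' share, rho was negative in S (-0.57 to -0.44) and C (-0.50 to -0.19), between -0.36 and 0.052 in L, and positive in G (0.37 to 0.54).

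Single members were tested between the hormone-rich and the hormone-poor parts, with the lane as a block, over 4 lanes. The lanes again come from 2 pools. In G, 15 of 32 members tested were higher in hormone-rich cells and 1 lower, where 5.08% and 3.08% of the 2499 genes tested were, and the other 8 members did not pass the filter. Of the lumenal chaperones 8 of 9 were higher, of the lectins and isomerases 4 of 6, and of the SSR and Sec61 subunits 1 of 6 tested.

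*Sdf2l1* was at 197, 187, 275 and 203 in the hormone-poor and 696, 742, 968 and 877 in the hormone-rich parts of lanes 1 to 4 (log2 fold change 1.92 ± 0.15, adjusted p = 1.13e-05). *Ssr4* was at 645, 986, 710.0 and 726 in the hormone-poor and 2249, 2451, 2912 and 2139 in the hormone-rich parts of lanes 1 to 4 (log2 fold change 1.67 ± 0.14, adjusted p = 1.42e-05). Both genes were higher in all 4 lanes, with no overlap between the parts. *Dnajc3*, a co-chaperone that also inhibits PERK, was at 95, 93.5, 142 and 106 in the hormone-poor and 386, 209.9, 479 and 552 in the hormone-rich parts of lanes 1 to 4 (log2 fold change 1.85 ± 0.21, adjusted p = 0.000294). *Pdia6* was at 326, 453, 772 and 557 in the hormone-poor and 1098, 809, 1851 and 1844 in the hormone-rich parts of lanes 1 to 4 (log2 fold change 1.39 ± 0.16, adjusted p = 0.000313). *Calr* was at 577, 957, 772 and 699 in the hormone-poor and 1418, 1473, 2161 and 1671 in the hormone-rich parts of lanes 1 to 4 (log2 fold change 1.15 ± 0.15, adjusted p = 0.000503). These 3 also rose in 4 of 4 lanes without overlap, as did *Pdia3* (log2 fold change 1.27 ± 0.16, adjusted p = 0.000503). *Atf4* was lower, at 319, 359.8, 266 and 442 in the hormone-poor and 88.9, 161, 282 and 121 in the hormone-rich parts of lanes 1 to 4, in 3 of 4 lanes (log2 fold change -1.19 ± 0.27, adjusted p = 0.0131). Of the 11 members with an ERSE or ERSE-II, 6 of 10 tested were higher, with a median of 0.88. Of those with a searched window and no match to either element 6 of 18 were higher, with a median of 0.45. Of those with no window 3 of 4 were higher, with a median of 1.14. Hormone-poor G were shallower in all 4 lanes, with median UMIs of 6806, 6626, 8372 and 8394 in lanes 1 to 4 against 17505, 18434, 9349 and 12684 in hormone-rich cells, and the 20 dissociation genes summed to 18443 to 25260 in the hormone-poor and 6206 to 18939 in the hormone-rich parts. Their part was not tested. With non-hormone UMIs thinned to 3000 per cell, 21 members passed the filter, of which 8 were higher and 0 lower.

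In L, 8 of 35 members tested were higher in *Prl*-rich cells and 0 lower, where 2.85% and 1.83% of genes tested were. At an unadjusted p below 0.05 there were 19 and 0, and by DESeq2 6 and 0. *Dnajb9* was at 409.7, 362, 315 and 285 in the hormone-poor and 659.7, 864, 532 and 452 in the hormone-rich parts of lanes 1 to 4 (log2 fold change 0.86 ± 0.14, adjusted p = 0.000848). *Hspa5* was at 329, 318, 397 and 359 in the hormone-poor and 531, 633, 538 and 533 in the hormone-rich parts of lanes 1 to 4 (log2 fold change 0.68 ± 0.13, adjusted p = 0.00496). Neither gene's parts overlapped. *Pdia6* was at 879, 797, 220.3 and 307 in the hormone-poor and 1319, 1418, 389.8 and 412 in the hormone-rich parts of lanes 1 to 4 (log2 fold change 0.67 ± 0.12, adjusted p = 0.00292). It rose in each lane while the pools stayed apart, as did *Calr* (log2 fold change 0.55 ± 0.12, adjusted p = 0.00938), *Ssr4* (log2 fold change 0.47 ± 0.11, adjusted p = 0.0141) and *Pdia4* (log2 fold change 0.82 ± 0.19, adjusted p = 0.0145). Median UMIs per cell were 13901.5, 22258, 5843 and 5374 in the hormone-poor and 16861, 18185.5, 10841 and 9136.5 in the hormone-rich parts of lanes 1 to 4. Without the hormone genes they were 11170.5, 18734, 5461 and 5005 against 9881, 9668.5, 7911 and 6987. The part of depth was not tested. Without lane 1 or without lane 2 only 4 members were higher.

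In C, 10 of 37 members were higher in *Pomc*-rich cells and 1 lower, where 6.0% and 4.51% of genes tested were. *Ssr4* was at 679, 777, 617 and 599 in the hormone-poor and 876, 932, 845 and 865 in the hormone-rich parts of lanes 1 to 4 (log2 fold change 0.41 ± 0.06, adjusted p = 9.02e-08). *Sec11c* was at 1519.8, 1567, 1480.2 and 1399.6 in the hormone-poor and 1787, 1851, 1884 and 1838 in the hormone-rich parts of lanes 1 to 4 (log2 fold change 0.31 ± 0.047, adjusted p = 1.56e-07). *Pdia6* was at 445, 404, 395 and 369 in the hormone-poor and 499, 575, 555 and 517 in the hormone-rich parts of lanes 1 to 4 (log2 fold change 0.42 ± 0.074, adjusted p = 5.73e-06). The parts of these 3 genes did not overlap, though the changes are small. *Sec61g* (log2 fold change 0.25 ± 0.054, adjusted p = 0.000231), *Hsp90b1* (log2 fold change 0.27 ± 0.073, adjusted p = 0.00533) and *Sec61b* (log2 fold change 0.22 ± 0.059, adjusted p = 0.00585) were also higher, and *Ddit3* was lower (log2 fold change -0.39 ± 0.11, adjusted p = 0.0127). The dissociation genes summed to 12295 to 14365 in *Pomc*-poor and 7443 to 8907 in *Pomc*-rich parts, and 13 of 18 were lower in *Pomc*-rich cells. Median UMIs per cell were 9241, 9989, 9339 and 8762 in the hormone-poor and 13991, 15721, 14736.5 and 14355 in the hormone-rich parts of lanes 1 to 4. Without the hormone genes they were 8192, 8644, 8545 and 8194.5 against 9364, 10927, 11029.5 and 10645.5. The part of the dissociation genes and of depth was not tested. DESeq2 called 3 higher and 0 lower, library size gave 4 and 2, and leaving out lane 2, 3 or 4 gave 6, 7 and 5 calls in all.

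In S, 6 of 39 members were higher in *Gh1*-rich cells and 2 lower, where 1.07% and 2.01% of genes tested were. *Dnajb9* was at 487, 425, 334 and 352 in the hormone-poor and 599.7, 581, 528 and 492 in the hormone-rich parts of lanes 1 to 4 (log2 fold change 0.48 ± 0.076, adjusted p = 0.00253). *Xbp1* was at 252, 279, 274 and 285 in the hormone-poor and 363, 373, 385 and 362 in the hormone-rich parts of lanes 1 to 4 (log2 fold change 0.44 ± 0.074, adjusted p = 0.00367). *Atf4* was at 202, 231, 193 and 232 in the hormone-poor and 267, 295, 299 and 291 in the hormone-rich parts of lanes 1 to 4 (log2 fold change 0.43 ± 0.082, adjusted p = 0.0089). These genes, with *Herpud1* (log2 fold change 0.56 ± 0.11, adjusted p = 0.0111), *P4hb* (log2 fold change 0.42 ± 0.085, adjusted p = 0.0139) and *Spcs2* (log2 fold change 0.32 ± 0.068, adjusted p = 0.0171), were higher in all 4 lanes. *Sdf2l1*, which had the smallest adjusted p in G, fell in S, where it was at 94.7, 75.7, 56.7 and 58.8 in the hormone-poor and 52.6, 52.3, 41.5 and 33.9 in the hormone-rich parts of lanes 1 to 4 (log2 fold change -0.66 ± 0.12, adjusted p = 0.00853), and *Ssr4* fell too (log2 fold change -0.31 ± 0.067, adjusted p = 0.0197). The difference between G and S in these genes was not tested. Median UMIs per cell were 8913, 9204.5, 12752 and 13460 in the hormone-poor and 14104, 14759, 18606 and 16801 in the hormone-rich parts of lanes 1 to 4. Without the hormone genes they were 7983, 7961, 10400 and 10917 against 8299, 8836, 10500 and 9720.5. Median mitochondrial shares were 4.69%, 4.99%, 4.51% and 4.43% against 3.25%, 3.24%, 3.04% and 3.19%. The part of these values was not tested. Without lane 2 there were 4 higher and 1 lower members, and without lane 3 there were 3 and 1, while library size gave 6 and 1. In FSC, parted by their *Gh1* UMIs, 1 of 37 members was called higher, *Atf4* (log2 fold change 0.37 ± 0.06, adjusted p = 0.00367), and 0 lower, where 0.0611% and 0.0814% of genes tested were. An unadjusted p below 0.05 was reached by 4 and 1, and DESeq2 called 0 and 0.

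**Figure D5:**
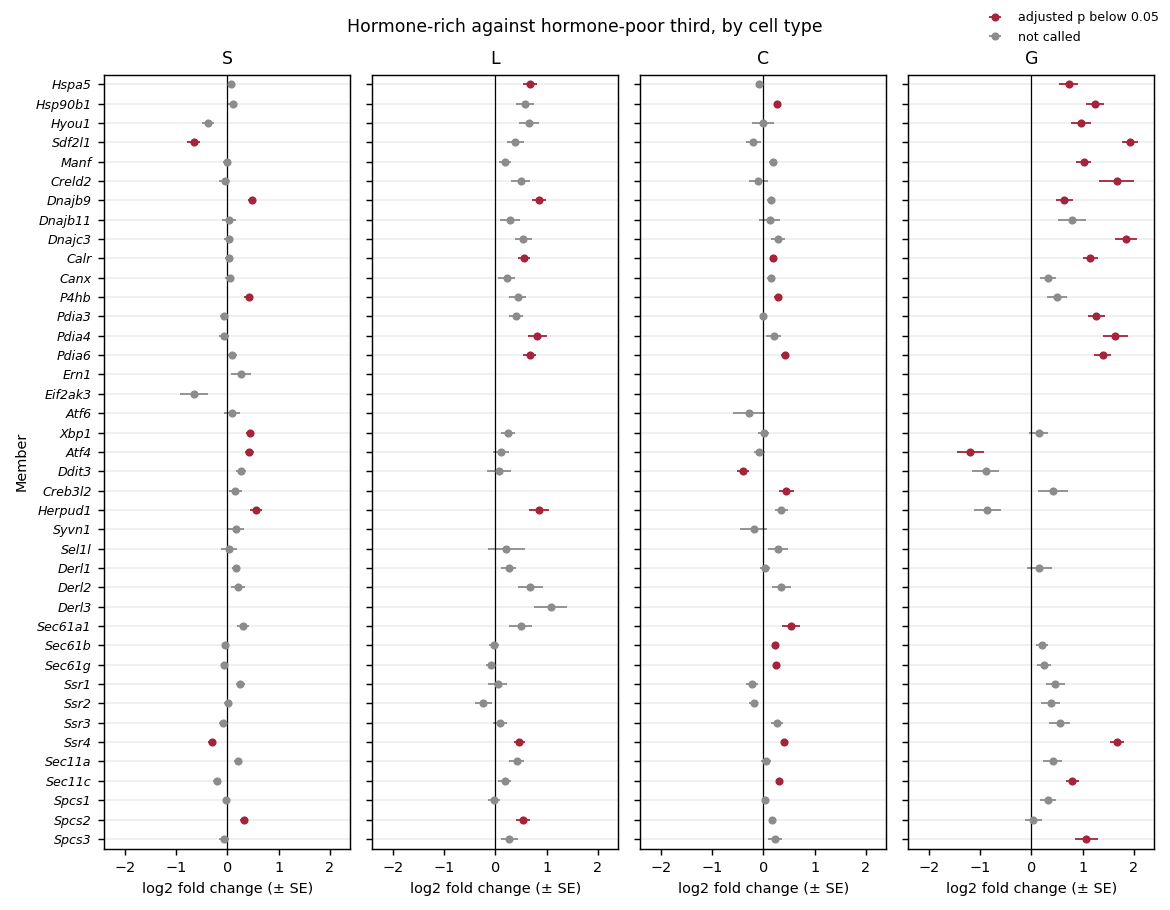
Log2 fold change of hormone-rich over hormone-poor cells (x axis, ± SE, 4 lanes) for each member (y axis) in S, L, C and G, in red where the adjusted p is below 0.05 and absent where the member did not pass the filter. The chaperones and isomerases in the upper rows lie to the right of 0 in G, with *Sdf2l1* at 1.92, and *Sdf2l1* lies at -0.66 in S.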

How the data were processed

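Single-cell UMI counts per gene were deposited as 1 table by the authors, made with Cell Ranger 2.1 (per the labels and the study's methods) against an extended NCBI Rnor6 annotation, with the lanes brought to equal mapped reads per cell by discarding reads, which lowers the counts of deeper lanes. From the deposited counts, cells were filtered and typed by marker genes after the study's procedure. Left out were 276 cells of high mitochondrial share, 328 with extreme gene or UMI numbers and 196 called doublets. Also left out were 207 ambiguous and 27 unclassified cells, 51 pericytes, 60 melanotrophs and 59 posterior pituitary cells. A cell could fall in more than 1 of these groups, so the numbers add to more than the cells left out. A further step typed 220 cells by their 30 nearest neighbours. Thinning drew 3000 UMIs per cell.

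UMI sums were tested with edgeR 4.0.16 in R 4.3.3 (quasi-likelihood, TMM, filterByExpr with a minimum count of 10), adjusted over all genes tested, with calls at an adjusted p below 0.05. Types were compared over sums per type and pool with sex as a term and without E, sexes over 2 against 2 lanes of a type, and hormone-rich with hormone-poor cells over 4 lanes with the lane as a block. SEs were derived from the F statistic. The scripts were tested on simulated data. DESeq2 1.42.0, library size, no filter, a limit of 0.001, thinning and left-out lanes were alternatives. Named with values were up to 6 members called higher and 4 called lower of smallest adjusted p per comparison, the UPR sensors and factors between HPC and FSC, and 2 genes of each other pathway list. Other genes were added after their values were seen (*Sec61a1*, *Sec11a*, *Sec11c*, *Hspa5* and *Sdf2l1* between HPC and FSC, *Derl3* and *Hspa5* in L, and *Derl3* and *Creld2* in T). The members and lists were chosen with earlier results of these data known. Intervals and SEs cover counting, lane spread and, between types, the disagreement of the pools within a type, and not the spread between animals.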

Additional observations from a re-analysis of the deposited data

Results flagged for a closer look

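The difference between the sexes in the ER genes was not the same in L and in S. By the test of the difference itself (edgeR's quasi-likelihood test with type, sex and lane in 1 fit), 32 of 40 members passed, all with a lower male over female ratio in L. *Ssr4* differed by a log2 fold change of -1.81, *Pdia6* by -2.11, *Sec11c* by -1.73 and *Ssr2* by -1.56. In these 4 genes both female lanes lay above both male lanes in L, while in S *Pdia6* was the other way. Each sex is 1 pool, so the difference cannot be told apart from one between pools or ages. Groups of 2 lanes were too small for a search for outlying samples.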

How the results depend on the processing

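Counted here are only results for single genes named by the rule given above. Of these, 1280 kept their side of the threshold over the alternatives, 108 lost it and 3 gained it. The 1 that reversed was *Atf6* in C against the other HPC types (0.34 after thinning). Members outside that rule were not counted, and some of them reversed too. In male against female L with library size, *Canx* went from -0.31 to 0.35, *Spcs2* from -0.42 to 0.24 and *Xbp1* from -0.36 to 0.30. Of the counts, shares and correlations, 270 stayed close, 77 moved and 3 reversed, and the cause was not tested. The reversed values were medians over the 4 lanes of Spearman's rho between the members' share of all UMIs and the hormone share. They were -0.52 in S, -0.16 in L and -0.37 in C, and in G this median was 0.41. With thinned cells, where the share is of non-hormone UMIs, the median in G was 0.52. Numbers of members called follow. At an adjusted p below 0.001 there were 17 for HPC against FSC, 3 for FSC against Le and EC, 1, 0, 0, 0 and 2 for C, G, T, S and L against the other HPC types, 12, 4, 10 and 2 for male against female S, G, T and FSC, and 0, 1, 4, 8 and 0 for hormone-rich S, L, C, G and FSC. With library size there were 14 for FSC against Le and EC, 7, 5, 13 and 10 for types C, G, T and S, 21 for male against female G and 6 for hormone-rich C. With no filter there were 13 for FSC against Le and EC, 19, 7, 13, 14 and 17 for types C, G, T, S and L, and 3 for male against female FSC. Sums per lane with the lane as block, which treat lanes of 1 pool as replicates, gave 11 for FSC against Le and EC and 23, 11, 17, 22 and 17 for types C, G, T, S and L. Thinned cells gave 1 and 11 for types G and L, 11, 5, 6 and 3 for male against female S, G, T and FSC, and 6 and 8 for hormone-rich C and G. DESeq2 gave 5 for type T, 14, 5 and 3 for male against female S, G and FSC, and 3 and 0 for hormone-rich C and FSC. Without T, an alternative chosen after seeing the data, there were 8 for type G and 12 for type L, and without cells typed by neighbours 5 for type T. Cells parted in 2 gave 5, 7 and 0 for hormone-rich S, C and FSC, and parting after thinning gave 0 for FSC.

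Leaving out each lane in turn gave 26 to 30 calls for HPC against FSC, 29 to 31 for HPC and 6 to 8 for FSC against Le and EC, 10 to 12, 2 to 3, 3 to 6, 5 to 5 and 6 to 10 for types C, G, T, S and L, 19 to 22, 30 to 34, 6 to 11, 0 to 1, 11 to 15 and 4 to 9 for male against female S, L, G, C, T and FSC, 29 to 29 for the sex difference in L against that in S, and 4 to 8, 4 to 11, 5 to 10, 13 to 16 and 0 to 1 for hormone-rich S, L, C, G and FSC. A left-out lane leaves 1 lane of that sex, assumed to vary like the others. The members' share was 1.30% in C, 1.38% in S, 1.81% in L and 0.122% in E without hormone and globin genes, and in E 0.0455% with outliers kept and 0.0378% as a mean over cells. No paired analysis was possible because the columns carry no replicate numbers that would pair female with male lanes. Depth limits T (36 female cells) and sparse genes such as *Eif2ak3*.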

Other observations

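Of the cells left out of the comparisons, melanotrophs and pericytes had a share of UMIs in the 40 genes above that of FSC (0.687%) and below that of each HPC type over both pools (0.960% in S, the lowest), and posterior pituitary cells had one below FSC and nearest to EC (0.583%). The share was 0.830% of UMIs (95% exact binomial interval 0.809 to 0.851%) in 60 melanotroph cells, the *Pomc*-producing cells of the intermediate lobe, 0.794% (0.765 to 0.823%) in 51 pericytes, and 0.605% (0.586 to 0.624%) in 59 posterior pituitary cells. The intervals cover counting error only. These cells, unlike the types they are set against, were not filtered by mitochondrial share, depth or doublet calls. With the hormone genes left out of the totals, the share was 1.10% in melanotrophs, 0.797% in pericytes and 0.607% in posterior pituitary cells. In the same setting it was 0.691% in FSC and 1.30% in C, the lowest HPC type.

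The female and male L also differed at like shares of *Prl*. In cells with 10 to 20% of UMIs in *Prl* the 40 genes held 1.89% of non-hormone UMIs in 35 female and 1.10% in 78 male cells. From 20 to 30% these values were 2.17% in 59 and 1.24% in 55 cells, and from 30 to 40% they were 2.30% in 63 and 1.40% in 23 cells. Lanes of the sexes did not overlap in these 3 ranges, where the female lanes were at 1.88 to 2.36% and the male lanes at 1.05 to 1.42%. Female cells were deeper in each range, with median UMIs of 16030, 20602 and 19466 against 7729, 9693 and 11948, and the part of depth was not tested here.

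Oligosaccharyl transferase subunits and transport genes between ER and Golgi were also lower in the male L, with 10 of 12 and 22 of 28 tested called lower by edgeR's test and 0 higher in either list, at an unadjusted p below 0.05 as well. Of all genes tested, 19.3% were lower and 15.1% higher in the male L. The medians of these lists were -1.15 and -1.09, against 0.019 over all genes. Of other folding and redox enzymes 21 of 26 were lower, and of further UPR factors and PERK targets 3 of 15 were lower and 2 higher.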
